A study of Mus musculus domesticus with 12 samples.

Results

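Exosc1 to Exosc9 encode the catalytically inert core of the RNA exosome. The 9 genes were taken by name, through the match of gene identifiers to mouse gene symbols, and all 9 were found among the 55385 genes listed in the deposited tables. Of these, 8 passed the filter on low counts. Exosc6 did not, because it was listed at 0 in all 12 libraries.

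The libraries came from E14.5 livers of the mouse strain C57BL/6J, whose cells were depleted of other lineages and infected with a retrovirus. The virus carried a short hairpin RNA (shRNA) against firefly luciferase (shLuc, the control), Dis3 (shDis3) or Exosc10 (shExosc10), with 4 libraries in each group. All groups went through the same infection, 2 days of culture in erythroid expansion medium, and a sort for GFP, for CD71 (the transferrin receptor) and against Ter119 (a marker of later erythroblasts). No group was uninfected, the hairpin sequences are not used here, and the labels do not say whether replicates came from separate cultures or embryos. The p-values therefore cover no more than the spread seen among these libraries, part or all of which may be technical.

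The RNA exosome trims and degrades RNA in the nucleus and the cytoplasm. Its core is a barrel: Exosc4, Exosc5, Exosc6, Exosc7, Exosc8 and Exosc9, which share the RNase PH fold, form a ring in 3 pairs, and Exosc1, Exosc2 and Exosc3, with S1-type RNA-binding domains, sit on top as the cap. The mammalian core threads RNA through its channel but does not cut it. Cutting is done by the bound nucleases Dis3, at the base of the barrel, and Exosc10, at the cap in the nucleus. In red cell precursors the exosome is known for holding back maturation.

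Exosc6 lies at chr8:111056339-111057664 on the plus strand of GRCm38 (ENSMUSG00000109941.1). It is a gene of 1 exon, 1326 bases long, and the whole of it lies inside the last exon of Aars, on the same strand. Aars encodes alanyl-tRNA synthetase, which charges tRNA with alanine. In that transcript the Exosc6 sequence belongs to the 3′ untranslated region. All 1277 windows of 50 bases along Exosc6 occur in the Aars transcript, so a short read from Exosc6 matches Aars equally well. The first 30 coding bases of Exosc6 (chr8:111056371-111056400, plus strand, from the GENCODE transcripts) are shown because they start at base 33 of the Exosc6 transcript and again at base 4457 of the 5750 bases of Aars-201. Capitals mark the start codon.
Exosc6: ATGccgggagaccatcgccgcatccgcggg

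The level of Exosc6 was therefore not measured in these tables. The 0 says that the counting gave none of the shared reads to Exosc6, and it does not say that the transcript is missing. A listing at 0 in every library was found for 998 of 21897 protein-coding genes (4.56%). Aars, which holds the shared sequence, measured 288, 287, 293 and 270 CPM (read counts scaled to the library total and normalised between libraries) in shLuc replicates 1 to 4. It measured 262, 172, 262 and 286 CPM in shDis3 and 252, 256, 252 and 226 CPM in shExosc10. Each shExosc10 library lay below each shLuc library, but the log2 fold change of -0.21 (SE 0.17) did not pass the test (edgeR, adjusted p = 1). Aars reads cannot be split into those of Aars and those of Exosc6.

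The other genes shared far less sequence. On the same strand, the share of 50-base windows found in another gene was highest for Exosc2, at 1.73%, and was 0 for Exosc1, Exosc3, Exosc7 and Exosc8. Overlap on the opposite strand was larger, at 17.8% for Exosc4 (mostly with Oplah), 11.9% for Exosc2 (mostly with the antisense gene Gm13427), 9.61% for Exosc9 (mostly with Ccna2, a cyclin of S phase and G2) and 4.43% for Exosc5 (mostly with Tmem91). The kit marks strand, but the strand setting of the counting is not given in the sources used here, so reads from these stretches may not be told apart. Oplah stayed between 0.227 and 1.55 CPM and Tmem91 at or under 0.818 CPM, both far below the genes they overlap. Ccna2 measured 207 to 328 CPM, above Exosc9 in every library. Its 2 highest libraries, shDis3 replicate 4 and shExosc10 replicate 1, were also the highest for Exosc9.

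**Figure D1:**
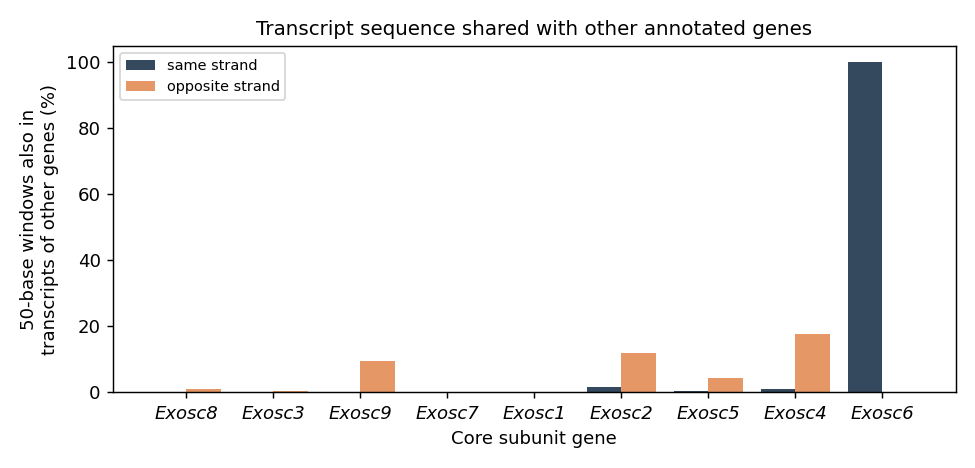
Share of the 50-base windows of each core gene (x axis) that also occur in a transcript of another gene (y axis, percent), on the same strand (dark bars) or the opposite strand (light bars). Exosc6 stands at 100% on the same strand, and the next highest value is 17.8% for Exosc4 on the opposite strand.

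Library totals were 14936200 to 32397204 counts. Each measured core gene had between 314 counts (the lowest library of Exosc4) and 4387 counts (the highest of Exosc9), and every one of these counts was whole. All 10 erythroid markers were detected in every library, with a summed level of 1198 to 3197 CPM. So were all 8 granulocyte markers, with sums of 1075 to 4842 CPM, and all 8 megakaryocyte markers, with 68.7 to 395 CPM. The granulocyte sum was above the erythroid sum in 6 of 12 libraries: all 4 of shDis3, 1 of shLuc (replicate 4) and 1 of shExosc10 (replicate 1). The markers thus show erythroid cells without showing that the sorted cells were erythroid alone, and the groups differ in these sums. The shRNA targets followed the labels. Dis3 was at 113 to 160.5 CPM in the shLuc libraries and 24.7 to 52.4 CPM in shDis3. Exosc10 was at 85.4 to 113 CPM in shLuc and 18.9 to 30.8 CPM in shExosc10.

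Some libraries stood nearer to a library of another group than to their own, by the correlation of log2 CPM across all genes tested. shDis3 replicate 4 and shExosc10 replicate 1 correlated with each other at r = 0.981, while their best partners in their own groups reached 0.968 and 0.942. For shLuc replicate 4 and shDis3 replicate 3 the value was 0.986, with 0.946 and 0.972 for the best partners in their own groups. shDis3 replicate 2 was nearest to shLuc replicate 2, at 0.963, against 0.93 within its own group. By smaller margins, shLuc replicate 2 (0.972 against 0.967), shExosc10 replicate 2 (0.972 against 0.97) and shExosc10 replicate 4 (0.966 against 0.965) also had their nearest library in another group. The libraries thus did not sort cleanly by group. The pair of shDis3 replicate 4 and shExosc10 replicate 1 bears directly on the core genes and is described with them.

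Between genes, levels were compared by TPM, which is per length of transcript. In shLuc, Exosc8 (chr3:54728678-54735393, minus strand) had the highest median, with 53.8, 78.0, 49.1 and 65.7 TPM in replicates 1 to 4. Exosc3 of the cap (chr4:45316613-45342732, minus strand) followed with 32.5, 70.9, 42.5 and 80.5 TPM. Exosc9 (chr3:36552606-36565727, plus strand) measured 41.9, 59.8, 41.4 and 76.2 TPM. The ranges of these 3 genes overlapped, and their order by median rests on medians close together: 59.8, 56.7 and 50.8 TPM.

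Exosc7 (chr9:123113215-123136129, plus strand) came next with a median of 43.2 TPM (32.5 to 67.0). The cap gene Exosc1 (chr19:41922292-41933423, minus strand) had a median of 40.5 TPM (25.9 to 50.1), and the cap gene Exosc2 (chr2:31670715-31681349, plus strand) 35.8 TPM (19.6 to 62.2). Exosc5 (chr7:25659164-25671368, plus strand) had 27.6 TPM (15.7 to 42.7). Each of these ranges overlapped the next, and the order was therefore also read within each library.

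Exosc4 (chr15:76327397-76330677, plus strand) was the lowest of the measured genes, with 6.03, 9.61, 8.38 and 16.3 TPM in shLuc. Its mean share of the summed TPM of the core genes was 2.96% in shLuc, 3.86% in shDis3 and 2.94% in shExosc10. Its highest shLuc library, replicate 4, lay just above the lowest library of Exosc5, replicate 1. Within each library Exosc4 was nevertheless below Exosc5, its neighbour in the order, in 12 of 12.

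Comparison within libraries removes the part of the spread that all genes of a library share. Exosc9 lay above Exosc7 in 12 of 12 libraries, and Exosc7 above Exosc1 in 12 of 12. Exosc8 lay above Exosc3 in 11, and Exosc2 above Exosc5 in 11. Exosc1 lay above Exosc2 in only 8 of 12, with 2 of 4 in shLuc. Exosc3 lay above Exosc9 in 3 of 4 shLuc libraries and in 0 of 8 knockdown libraries, a split by group that was noticed in the values and carries no test. By median, Exosc8 led in shLuc and in shExosc10 and Exosc9 led in shDis3, while Exosc7, Exosc5 and Exosc4 kept their places in all 3 groups.

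**Figure D2:**
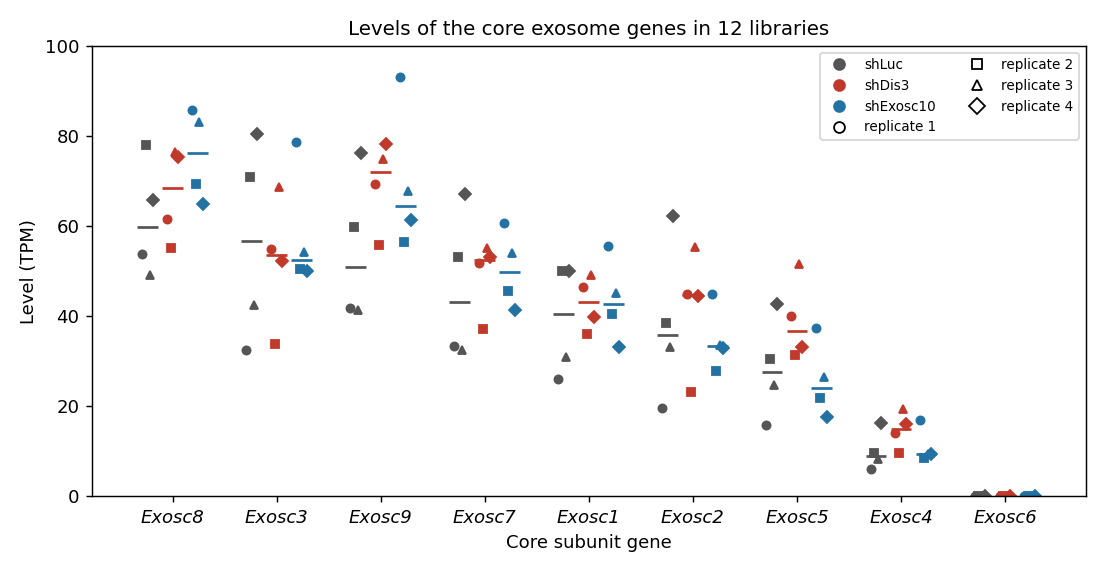
TPM (y axis) of each core gene (x axis) in every library, with colour for the group, marker shape for the replicate and a bar at the group median. Exosc4 is the lowest measured gene, with shLuc values from 6.03 to 16.3 TPM, and all 12 points of Exosc6 lie at 0.

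Loss of Dis3 transcript was compared with the control to ask whether the core genes move when a catalytic subunit is reduced. None of the 8 measured core genes passed the test in shDis3 against shLuc, where no gene among 17650 did (0%). That background depends on the libraries and the filter: 146 genes passed without shLuc replicate 4, 123 without the filter on low counts and 772 without 3 libraries that stand apart (replicate 4 of shLuc, replicate 4 of shDis3 and replicate 1 of shExosc10), and 0 core genes did in each case. None had an unadjusted p under 0.05, which 4.07% of all genes had, and none had CPM values that did not overlap between the groups, which 0.907% of all genes had upward and 0.793% downward. The median log2 fold change of the core genes was -0.01, with 3 positive and 5 negative, against 0.02 over all genes tested. Without shDis3 replicate 4 it was -0.17, with 2 positive and 6 negative, and without shDis3 replicate 2 it was 0.11, with 6 positive and 2 negative.

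Exosc4 had the largest value in this comparison. It measured 18.9, 16.7, 20.2 and 21.8 CPM in shLuc and 21.4, 18.8, 24.6 and 35.7 CPM in shDis3. The groups overlapped, and 1 shDis3 library, replicate 4, stood well above the others. The log2 fold change was 0.38 (SE 0.27, 95% interval -0.20 to 0.95, edgeR, adjusted p = 0.9998). Exosc5, whose groups also overlapped, had 29.6, 29.03, 36.4 and 32.9 CPM in shLuc and 34.6, 34.3, 40.4 and 41.0 in shDis3, a log2 fold change of 0.23 (SE 0.20).

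The cap gene Exosc3 had the lowest value, with 55.1, 64.2, 58.0 and 57.5 CPM in shLuc and 46.1, 35.4, 49.6 and 64.2 CPM in shDis3. Of the shDis3 libraries, 3 lay below all shLuc libraries and replicate 4 lay level with the highest shLuc library, replicate 2. Its log2 fold change was -0.26 (SE 0.21, 95% interval -0.72 to 0.19). Exosc9 had 0.19 (SE 0.22) and Exosc8 -0.16 (SE 0.22). Exosc1, Exosc2 and Exosc7 had values of -0.01, -0.03 and -0.01, with SEs of 0.19, 0.23 and 0.20.

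Loss of Exosc10 transcript gave values of similar size. In shExosc10 against shLuc 0 of 8 core genes passed the test, where 1 gene of 17650 did (0.00567%), Exosc10 itself. No core gene had an unadjusted p under 0.05 (2.10% of all genes) or groups that did not overlap (1.02% of all genes upward, 1.46% downward). The median was 0.18, with 6 positive and 2 negative, against 0.02 and 52.2% positive over all genes. Without shExosc10 replicate 1 it was -0.01, with 4 positive and 4 negative. This comparison uses the same shLuc libraries as the one for Dis3, so the 2 are not independent.

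Exosc9 had the largest value. It measured 111, 89.6, 89.7 and 87.9 CPM in shLuc and 166, 101, 113 and 100.4 CPM in shExosc10. The groups overlapped only through shLuc replicate 1, and shExosc10 replicate 1 stood far above the rest. The log2 fold change was 0.35 (SE 0.22, 95% interval -0.13 to 0.82, edgeR, unadjusted p = 0.141, adjusted p = 1). Exosc8 had 0.22 (SE 0.22), Exosc1 0.22 (SE 0.19) and Exosc7 0.19 (SE 0.20). Exosc4 and Exosc3 had 0.16 and 0.10 (SEs 0.27 and 0.21), and Exosc2 and Exosc5 had -0.08 and -0.13 (SEs 0.23 and 0.20). Exosc4 and Exosc3 turn negative without shExosc10 replicate 1, at -0.16 and -0.10.

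The knockdowns were also set against each other, a contrast without the shLuc group. All 12 libraries, those of shLuc included, still entered the filter, the normalisation and the estimate of spread. Here too 0 of 8 core genes passed the test, where 2 genes did (0.0113%): the targets Dis3 and Exosc10. No core gene had an unadjusted p under 0.05 (5.98% of all genes) or groups that did not overlap (1.91% of all genes upward, 1.80% downward). The median was -0.18, with 3 positive and 5 negative, against 0.01 over all genes. It was -0.39 without shDis3 replicate 4 and -0.02 without shExosc10 replicate 1.

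Exosc8 and Exosc5, which pair in the ring, had the largest values, in opposite directions. Exosc8 measured 58.9, 66.7, 57.3 and 98.5 CPM in shDis3 and 104, 85.4, 96.1 and 80.1 CPM in shExosc10. Only shDis3 replicate 4 reached into the shExosc10 range, and the log2 fold change was -0.38 (SE 0.22, 95% interval -0.85 to 0.09, edgeR, unadjusted p = 0.107, adjusted p = 0.853). Exosc5 measured 34.6, 34.3, 40.4 and 41.0 CPM in shDis3 and 42.0, 24.8, 27.3 and 22.4 CPM in shExosc10. Only shExosc10 replicate 1 reached into the shDis3 range, and the log2 fold change was 0.37 (SE 0.20, 95% interval -0.06 to 0.79, edgeR, unadjusted p = 0.0868, adjusted p = 0.832). Exosc3 had -0.36 (SE 0.21), and the other 5 measured genes lay between -0.23 and 0.21.

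All 24 of the 95% intervals, for 8 genes in 3 comparisons, lie between -0.85 and 0.95 on the log2 scale. A doubling or a halving of any of the 8 transcripts lies outside them, each interval taken alone and with no allowance for there being 24. Which smaller changes are left inside differs by gene. In shDis3 against shLuc the interval was -0.42 to 0.39 for Exosc1 and -0.20 to 0.95 for Exosc4. A transcript level does not show the amount of protein in the complex. In bulk samples, a lower share of one cell type and less RNA per cell cannot be told apart.

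**Figure D3:**
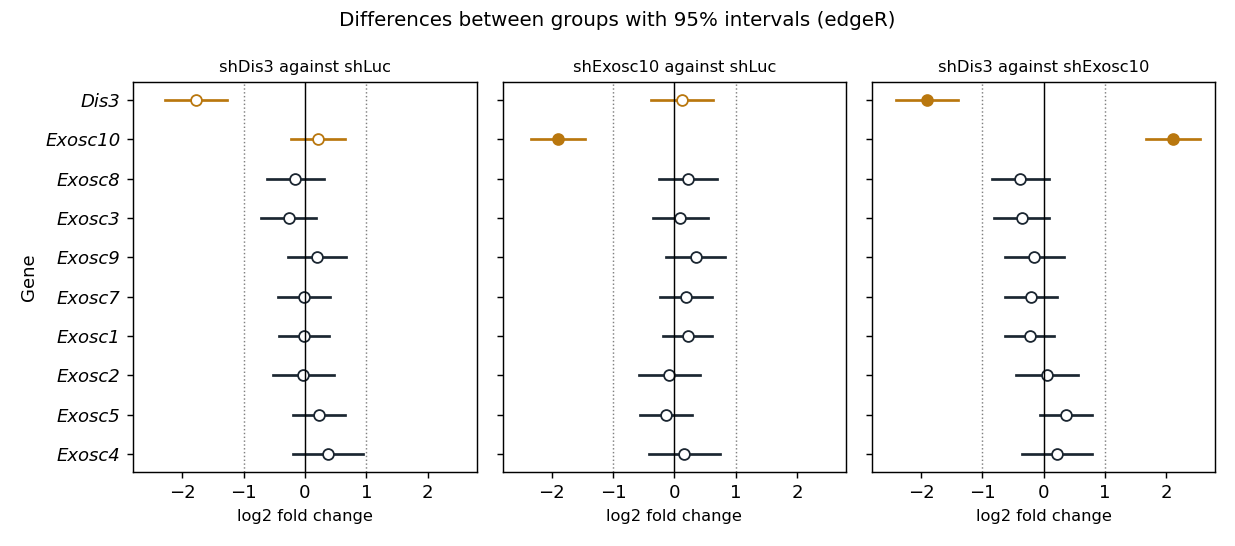
Log2 fold change (x axis) of Dis3, Exosc10 and each measured core gene (y axis) in the 3 comparisons, with its 95% interval, dotted lines at -1 and 1, and filled points for genes that passed the test. Every interval of a core gene crosses 0, and the outermost bounds are -0.85 for Exosc8 in shDis3 against shExosc10 and 0.95 for Exosc4 in shDis3 against shLuc.

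The largest movement of the core genes did not follow the groups. shDis3 replicate 4 and shExosc10 replicate 1 had all 8 measured core genes above their own mean over the 12 libraries, which held for 36.3% of all genes tested. They were the 2 highest of the 12 libraries for 7 of 8 core genes (all but Exosc8), and for 12.1% of all genes tested. For Exosc3 and Exosc5 this was close. shDis3 replicate 4 had 64.22 CPM of Exosc3 against 64.19 in shLuc replicate 2, and 40.974 CPM of Exosc5 against 40.425 in shDis3 replicate 3. On the log2 scale, the mean of the core genes stood 0.42 and 0.53 above their 12-library mean in these libraries. In the other 10 libraries it lay between -0.29 (shDis3 replicate 2) and 0.01 (shLuc replicate 1). The pair was singled out after its values were seen.

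Exosc9 shows the pattern most plainly: 157 and 166 CPM in the pair, and 87.1 to 113 CPM in the other 10 libraries. Exosc4 measured 35.7 and 35.3 CPM in the pair and 16.0 to 24.6 CPM elsewhere. In both genes the pair stood clear of all other libraries of all 3 groups. Exosc8 did not follow, since its 98.5 and 104 CPM had shLuc replicate 1, at 101 CPM, between them. The pair did not share a hairpin target: Dis3 was at 52.4 CPM in shDis3 replicate 4 and 196 in shExosc10 replicate 1, and Exosc10 at 141 and 30.8 CPM.

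Other values of this pair were read too, and not all of them set it apart. Its normalisation factors were 0.881 and 0.905, and mitochondrial genes took 20.9% and 20.8% of counts. Over all libraries the mitochondrial share ran from 9.79% to 20.9%. It was 19.9% in shDis3 replicate 2, which had the lowest core mean, -0.29. Erythroid markers summed to 1596 CPM in shDis3 replicate 4, within the 1323 to 2163 CPM of the rest of its group, and to 1717 CPM in shExosc10 replicate 1, below the 2533 to 3197 CPM of the rest. shLuc replicate 1, with a factor of 0.856 and 20.9% mitochondrial counts, had a core mean of only 0.01. Mast cell and basophil markers, of which 1 of 7 (Fcer1a) was at 0 in all libraries, summed to 83.0 CPM in shDis3 replicate 4, against 22.95 to 59.9 CPM in the rest of its group. In shExosc10 replicate 1 they summed to 106 CPM, against 9.01 to 12.3 CPM in the rest of its group, and in shLuc they ran from 10.8 to 99.0 CPM (replicate 4, with a core mean of -0.10). Both libraries were thus the highest of their groups for these markers. Megakaryocyte markers summed to 305 CPM in shExosc10 replicate 1, against 119.8 to 145 CPM in the rest of its group. In shDis3 replicate 4 they summed to 324 CPM, within the 282 to 348 CPM of the rest. Granulocyte markers summed to 2080 CPM in shDis3 replicate 4, below the 3243 to 4842 CPM of the rest of its group, and to 2039 CPM in shExosc10 replicate 1, above the 1311 to 1655 CPM of the rest. Olfactory receptor genes, which can register genomic DNA, summed to 14.7 and 11.5 CPM, against 7.32 to 665 CPM in all libraries. The part of these differences in the level of the core genes was not tested.

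Without these 2 libraries, 0 of 8 core genes passed the edgeR test in each comparison, as with them. Several values moved all the same. In shDis3 against shLuc, Exosc4 went from 0.38 to 0.15 and Exosc9 from 0.19 to -0.04, while Exosc3 went from -0.26 to -0.43 and Exosc8 from -0.16 to -0.37. Exosc7 and Exosc2 went from -0.01 and -0.03 to -0.205 and -0.215 there. With shLuc replicate 4 left out too, Exosc8 had -0.508 (edgeR, adjusted p = 0.127). In shExosc10 against shLuc, Exosc9 went from 0.35 to 0.16. Between the knockdowns, Exosc8 went from -0.38 to -0.535 (edgeR, adjusted p = 0.437) and Exosc5 from 0.37 to 0.538 (edgeR, adjusted p = 0.392). The opposite signs of Exosc8 and Exosc5 were thus larger without the pair, and neither passed.

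**Figure D4:**
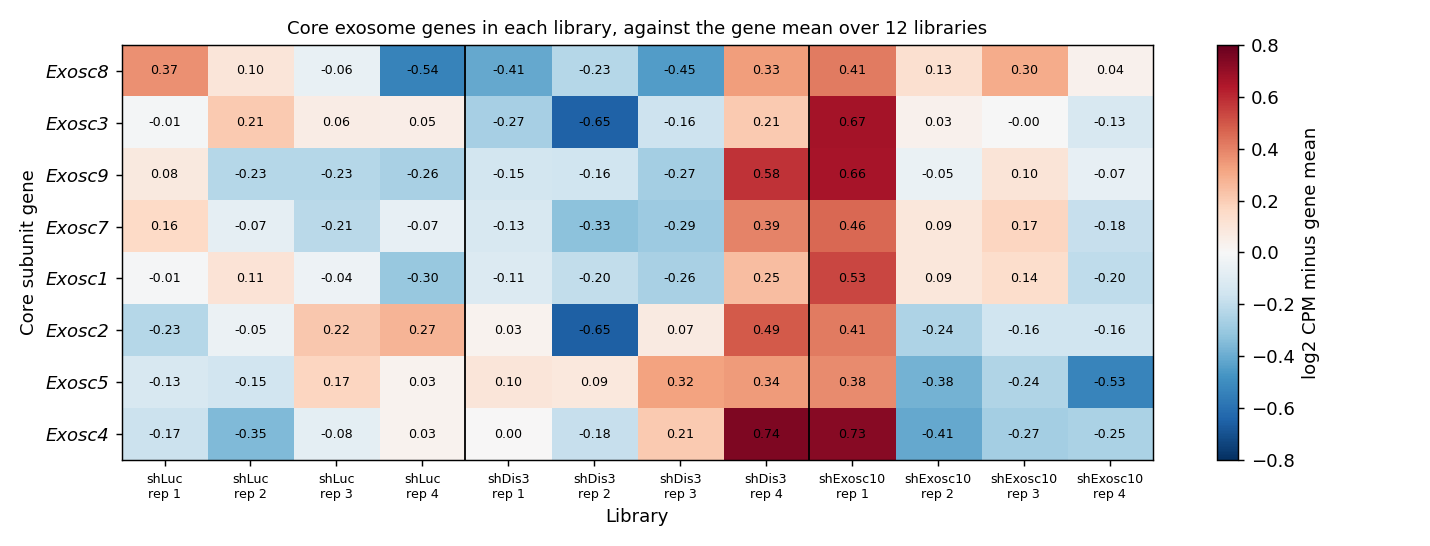
Log2 CPM of each measured core gene (rows) in each library (columns), as the difference from the gene's mean over 12 libraries. shDis3 replicate 4 and shExosc10 replicate 1 are above the mean for all 8 genes, with means of 0.42 and 0.53 over the genes.

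The SD of log2 CPM within groups was 0.24 for Exosc1, the steadiest of the 8, and 0.39 for Exosc4, the most variable. Its median over the 8 genes was 0.30, against 0.31 for the 8219 genes whose mean reached 10 CPM. With all libraries in, the core genes were thus about as variable as other genes of that level. Without shDis3 replicate 4 and shExosc10 replicate 1, the medians were 0.156 for the core genes and 0.261 for the 8219 genes. The pair was singled out by the values of the core genes, so this second comparison carries no test.

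Pairs of ring subunits that touch in the complex were compared by the ratio of their TPM within each library. Exosc9 over Exosc4 was 6.95, 6.22, 4.94 and 4.67 in shLuc, 4.95, 5.79, 3.87 and 4.88 in shDis3, and 5.48, 6.63, 7.30 and 6.52 in shExosc10. Exosc9 was the higher transcript of the pair in all 12 libraries, and the 3 groups overlapped. Exosc8 over Exosc5 was 3.43, 2.55, 2.00 and 1.54 in shLuc, 1.54, 1.76, 1.48 and 2.27 in shDis3, and 2.29, 3.19, 3.15 and 3.68 in shExosc10. All shDis3 libraries lay below all shExosc10 libraries, by a margin of only 2.27 against 2.29, and shLuc spanned both. These ratios were looked at after the fold changes of Exosc8 and Exosc5 were known and carry no test. The ratio of Exosc7 to Exosc6, the remaining pair, has no value because Exosc6 is listed at 0.

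**Figure D5:**
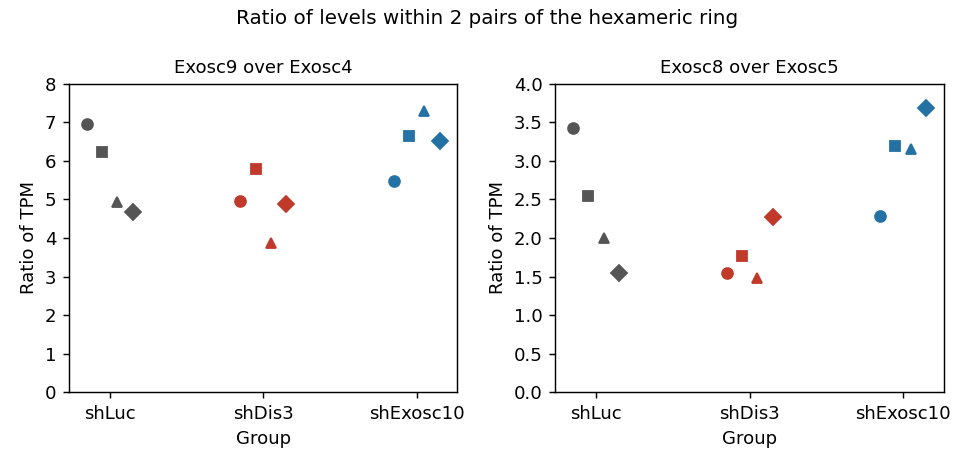
TPM of Exosc9 over Exosc4 and of Exosc8 over Exosc5 (y axis) in each library, by group (x axis), with marker shape for the replicate. For Exosc8 over Exosc5 the shDis3 libraries end at 2.27 and the shExosc10 libraries begin at 2.29, while shLuc runs from 1.54 to 3.43.

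Among the 3 nuclease genes, only the targets passed the test in any comparison. For Exosc10 in shExosc10, the log2 fold change from shLuc was -1.89 (SE 0.21, edgeR, adjusted p = 0.00502). For Dis3 in shDis3 it was -1.78 (SE 0.24, edgeR, adjusted p = 0.0581), which missed the threshold of 0.05, and Dis3 passed only between the knockdowns, at -1.90 (SE 0.24, edgeR, adjusted p = 0.0138). The other target did not pass in either case, with 0.21 (SE 0.20) for Exosc10 in shDis3 and 0.12 (SE 0.24) for Dis3 in shExosc10. Dis3l, the cytoplasmic relative of Dis3, measured 22.1, 22.5, 22.3 and 31.3 CPM in shLuc, 29.7, 22.0, 34.9 and 43.4 in shDis3, and 30.5, 20.8, 22.4 and 18.4 in shExosc10. It had 0.41 (SE 0.23) in the Dis3 knockdown relative to control, which did not pass.

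The cofactors that bring RNA to the core did not pass the test either. Of 14 nuclear cofactors, all measured, 0 passed the test upward and 0 downward in each comparison. Over all 17650 genes tested, 0 passed in shDis3 against shLuc, 1 in shExosc10 against shLuc and 2 in shDis3 against shExosc10. Their median log2 fold changes were -0.05 in shDis3 against shLuc, 0.02 in shExosc10 against shLuc and -0.10 in shDis3 against shExosc10. In shDis3 against shLuc the largest were Tent4a, a polymerase that adds tails to RNA bound for the exosome (-0.41, SE 0.32), and Ncbp2, a subunit of the nuclear cap-binding complex (0.15, SE 0.21). In shExosc10 against shLuc they were Mphosph6, which binds the nuclear exosome (0.46, SE 0.26), and Nrde2 (-0.35, SE 0.24). The same genes led in shDis3 against shExosc10, Nrde2 with 0.39 (SE 0.24) and Mphosph6 with -0.38 (SE 0.26).

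In the cytoplasm the Ski complex, a helicase with its partners, feeds RNA to the exosome. Of 4 genes of this complex and its adaptor, 0 passed in each comparison, with medians of -0.07, 0.11 and -0.14 in the same order. Skiv2l, the helicase, had the largest value each time: -0.17 (SE 0.28), -0.42 (SE 0.29) and 0.25 (SE 0.29). It was followed by Wdr61, a scaffold protein, with 0.12 and 0.27 (SE 0.20 each) against shLuc, and by Hbs1l, the adaptor, with -0.22 (SE 0.16) between the knockdowns.

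The core genes share a feature of position. Of the 9 genes, 6 start within 1000 bases of a gene on the other strand that runs the opposite way (66.7%), against 2386 of 22028 protein-coding genes (10.8%). The distances between the starts are 10 bases for Exosc7 and Zdhhc3, 57 for Exosc1 and Zdhhc16, 146 for Exosc8 and Alg5, 183 for Exosc5 and Bckdha, 618 for Exosc4 and Oplah, and 631 for Exosc3 and Dcaf10. Exosc2, Exosc6 and Exosc9 have no such neighbour.

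These neighbours did not all show the rise of the core genes in shDis3 replicate 4 and shExosc10 replicate 1. Alg5, an enzyme of protein glycosylation, did, with 39.2 and 43.2 CPM against 20.9 to 34.8 CPM elsewhere. Zdhhc16 also had its highest values there, by a small margin, at 28.2 and 28.4 CPM, with 27.6 CPM in the next library. Bckdha was highest in shDis3 replicate 4, at 23.4 CPM, but shExosc10 replicate 1, at 18.9 CPM, lay below shDis3 replicate 1, at 22.3 CPM. Dcaf10 had its lowest values there, at 19.7 and 19.8 CPM against 20.1 to 29.8 CPM. Zdhhc3 was in the middle of its range, at 86.4 and 86.2 CPM. Oplah, low in every library, measured 0.555 and 0.227 CPM there, within a range of 0.227 to 1.55 CPM. None of the 6 neighbours passed the test in any comparison. The nearest to it was Bckdha, a subunit of the enzyme that breaks down branched-chain keto acids, in shDis3 against shExosc10, with 20.3 ± 3.01 and 13.0 ± 4.17 CPM (log2 fold change 0.65, SE 0.23, adjusted p = 0.764).

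The genes most like the mean pattern of the 8 measured core genes were sought by the root mean square difference of centred log2 CPM over the 12 libraries. Of 13902 protein-coding genes, the nearest were Hnrnpa2b1 (0.055), Srsf7 (0.062), Ddx1 (0.063), Emg1 (0.066) and Pdcd2 (0.066), and the median over all was 0.478. Hnrnpa2b1 and Srsf7 encode RNA-binding proteins of splicing, Ddx1 an RNA helicase, and Emg1 a methyltransferase of ribosome assembly. The core genes themselves lay farther out, from 0.118 (Exosc7) to 0.252 (Exosc8), though the mean was made from them. Exosc7, the nearest of the members, ranked number 168 by this measure, and Exosc8, the farthest, number 2738. All 8 lay nearer than the median of 0.478, but the mean was made from these 8, so this carries no test. That median also covers genes of low counts. The median SD of log2 CPM over 12 libraries was 0.531 for all genes tested and 0.315 for those whose mean reached 10 CPM. It was 0.313 for the core genes.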

How the data were processed

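Per the file headers, the authors deposited RSEM gene tables with an expected count per gene (an estimated count), TPM and an effective length. STAR 2.5.3a, RSEM 1.3.0 and the build GRCm38 are named in the submitters' processing notes; annotation and strand setting were not given in the sources used here. Symbols and positions came from GENCODE M21: 55144 of 55385 identifiers matched, 54487 of them including the version. Between 3.78% and 5.86% of gene counts per library were not whole. Rounded counts went into edgeR 4.0.16's quasi-likelihood test (R 4.3.3, TMM, default filter by group, group as the only term, 12 libraries). This left 17650 genes and a biological coefficient of variation of 60%. The Benjamini-Hochberg adjustment ran over all of them. SEs and intervals came from the same model. CPM used TMM-scaled library sizes, and log2 CPM a prior count of 2. TPM as deposited by the authors was used for levels between genes. Counting error is covered only in part, since reads are not independent molecules. No library repeated another (lowest chi-square per degree of freedom 10.7). The script was tested on simulated data. Named genes were all 9 core genes, the targets, called pathway genes and the 2 largest per list and comparison, head-to-head neighbours, and the 5 genes most alike. Members and lists were chosen with earlier results of these data known. Alternatives were normalisation, filter, replicate block, library cluster, libraries left out, samples in the fit, DESeq2 1.42.0, and limma 3.58.1 on log2(TPM + 1).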

Additional observations from a re-analysis of the deposited data

Results flagged for a closer look

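Within groups of 4, the highest or lowest library was tested for its gap to the nearest other library (Dixon's ratio). Of 24 gene and group combinations 5 stood out, and chance gives about 1 in 20. In shExosc10, replicate 1 was far above the others for Exosc4 (35.3 CPM, nearest 17.9), Exosc2 (81.5, nearest 54.8) and Exosc3 (88.2, nearest 56.8). In shDis3, replicate 4 was far above the others for Exosc9 (157 CPM, lowest 87.1). In shLuc, replicate 1 was above the others for Exosc9 (111 CPM, nearest 89.7). The first 4 all belong to shDis3 replicate 4 and shExosc10 replicate 1, in which all 8 measured core genes were high. The same libraries enter all genes, so these flags are not independent of each other.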

How the results depend on the processing

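In each comparison the number of core genes past the threshold was 0 under every alternative, including DESeq2 and limma. Of 288 log2 fold changes with 1 library left out, 268 kept their direction and 20 turned it, over -0.611 to 0.593. Of 216 under other alternatives 202 kept it and 14 turned it, over -0.569 to 0.605. No value passed 1 in size, and the lowest adjusted p was 0.116.

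The values that turned, none of them past the threshold, were these, and the cause was not tested. In shDis3 against shLuc, Exosc8 had 0.00675 with library cluster as a factor. Exosc9 had -0.0752 without 3 libraries that stand apart (replicate 4 of shLuc, replicate 4 of shDis3, replicate 1 of shExosc10), and -0.0427 without the latter pair (added after seeing the data). limma on log2(TPM + 1) gave 0.134 for Exosc7, 0.130 for Exosc8, 0.168 for Exosc1 and 0.175 for Exosc2. In shExosc10 against shLuc, Exosc3 and Exosc4 had -0.108 and -0.100 without those 3 libraries, and -0.100 and -0.163 without the pair. In shDis3 against shExosc10, Exosc4 and Exosc2 had -0.0595 and -0.241 with library cluster, and Exosc9 had 0.0122 with limma.

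With 1 library left out, the ranges in shDis3 against shLuc were -0.205 to 0.066 for Exosc7, -0.138 to 0.0554 for Exosc1, -0.214 to 0.147 for Exosc2 and -0.0429 to 0.289 for Exosc9. In shExosc10 against shLuc they were -0.0997 to 0.194 for Exosc3 and -0.163 to 0.293 for Exosc4. In shDis3 against shExosc10 they were -0.0322 to 0.549 for Exosc4, -0.153 to 0.231 for Exosc2 and -0.411 to 0.0435 for Exosc9. Leaving out shDis3 replicate 4 turned Exosc9 in the first comparison and Exosc4 in the third, and leaving out shExosc10 replicate 1 turned Exosc3 and Exosc4 in the second and Exosc9 in the third.

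The count over all genes moved more. In shDis3 against shLuc it was 0, and 1 with DESeq2's size factors, 123 without the filter, 1 with library cluster, 772 without the 3 libraries, 2 without the pair, 28 with DESeq2 and 0 to 146 with 1 library left out (146 without shLuc replicate 4). In shExosc10 against shLuc it was 1, and 10 without the filter, 3 without the 3 libraries, 6 with DESeq2, 0 with limma and 0 to 2 with 1 left out. In shDis3 against shExosc10 it was 2, and 179 without the filter, 617 without the 3 libraries, 1 with only the 8 libraries compared, 62 with DESeq2, 0 with limma and 1 to 2 with 1 left out. The labels do not say whether the replicate numbers pair the samples. Correlations of same-numbered libraries, as deviations from their group means, ran from -0.47 to 0.773, which does not settle it. With a replicate block the counts were 0, 1 and 1, and 0 core genes passed in each comparison. The order by level was the same by count per length, and with any 1 shLuc library left out 2 genes changed place (2 to 2).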

Other observations

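The fold changes of all genes varied with GC content. Over 13889 protein-coding genes in 5 bins of transcript GC, the median log2 fold change in shDis3 against shExosc10 went from -0.155 in the lowest bin to 0.218 in the highest, and in shExosc10 against shLuc from 0.109 to -0.16. Transcript GC was 55.1% for Exosc5 and 54.9% for Exosc4, both in the fourth bin (median 0.158 in shDis3 against shExosc10), which also holds Exosc8, at 52.2%. Exosc9, at 44.5%, and Exosc1, at 45.4%, are in the second bin (median -0.0371). Exosc8 and Exosc5, whose log2 fold changes had opposite signs in that comparison, thus share a bin by transcript GC. Exosc8 lay close to the lower edge of that bin, 51.9%. Over the coding bases alone, GC was 47.6% for Exosc8 and 59.3% for Exosc5. The part of GC content in these values was not tested.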
